A study of Mus musculus with 4 samples.

Results

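The 43 genes described here are nucleolar ribosome biogenesis genes, given as a list of symbols, and all 43 matched 1 Ensembl identifier each among the 55812 features of the deposited count table. The list was proposed with results of these data known and was thus in part chosen by measured values, above all by the low counts of several of its genes in 1 control sample. Values of the listed genes are therefore described here and not tested.

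RNA was sequenced from primary Leydig cells, the androgen-producing cells between the seminiferous tubules, of the 6-month-old mouse. Cells received Negative siRNA, a control small interfering RNA, or Trps1 siRNA, against the GATA-type repressor Trps1, with 2 samples in each group; those with Negative siRNA are called the controls below. The labels name no strain, dose or time after transfection. They also leave unsaid whether replicates were grown or prepared independently, so that p-values rest on a spread that may be technical. Library totals ranged from 17844125 to 25852898 counts. Trps1 itself had 38.0 and 42.2 CPM in the controls, a scale on which counts are divided by the TMM-scaled library total, and 23.5 and 30.1 CPM after Trps1 siRNA, a fold change of 0.671 (edgeR adjusted p = 0.000351). The 8 adult Leydig markers summed to 4051 and 4334 CPM in the controls and 6029 and 6471 CPM after Trps1 siRNA. Star and Insl3 among them did not follow the sum, with log2 fold changes of -0.09 and 0.02, while the others were called higher. In the same order of samples, 12 markers of macrophages summed to 3064, 2977, 2591 and 2042 CPM. Of the 7 Sertoli markers, which summed to 2723 to 3054 CPM, nearly all of the level was Clu, at 2696 to 3023 CPM. The 6 peritubular myoid markers summed to at least 94.0 CPM in each control and to 58.9 and 62.7 CPM in the Trps1 siRNA samples, and Acta2 and Myl9 among them were called lower. Endothelial markers summed to at most 40.4 CPM and germ cell markers to 32.7 to 48.5 CPM, while lymphocyte markers reached at most 3.33 CPM and the 6 erythroid markers at most 0.298 CPM. In such bulk samples, fewer cells of a type and less RNA per cell cannot be told apart.

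Ribosomes are built in the nucleolus, where RNA polymerase I transcribes the ribosomal RNA (rRNA) genes, small nucleolar ribonucleoproteins (snoRNPs) guide the modification of the transcript, and a large set of assembly factors cleaves and folds it into the 40S and 60S subunits. Genes for these factors are expressed in all nucleated cells and are known to rise with growth and with the transcription factor MYC. One of the 43 genes, Mrm1, encodes a methyltransferase that acts on rRNA in mitochondria and not in the nucleolus.

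The first sample of Negative siRNA stood apart from the other 3 in these genes. In that library 8 of the 43 genes were at 1.81% to 6.98% of their median level in the other samples, and the other 35 genes were never below 84.1% of it in any library. None of the 43 genes lay between these values. The threshold used, a lowest sample under 0.25 of the median of the other 3, thus parted the list without borderline cases. Among the 43, Tsr3, at 6.98%, was the gene just inside the threshold and Heatr1, at 84.1% in sample 1 of Trps1 siRNA, the one just outside. The list was in part chosen by these low counts, and genes of the same pathway outside it did lie between. In sample 1 of Negative siRNA, Ebna1bp2 was at 20.7% of its median in the other samples, Gnl3l at 33.9% and Ftsj3 at 46.0%. Among all 10758 tested features with a mean of at least 5 CPM, 0.167% met the same criterion, in all 18 features. This pattern helped to choose the list, and nothing is read from the difference between the shares.

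Promoters of some members hold the same short motif. It is shown because MYC is known as a regulator of this pathway. The motif CACGTG, the E-box that MYC and its partner MAX are known to bind, was looked for in windows from 250 bases before to 50 bases after annotated start sites (RefSeq, GRCm38.p6). It reads the same on both strands. It was present for 10 of the 37 members found in the table, or 27.0%, and for 8.09% of 27025 genes. Per window, it was in 21.7% of 46 windows of members and 7.15% of 32851 windows. The genes compared were all those with such windows and not only ones expressed in these cells, as the members were. Nothing is therefore read from the difference between the shares. The list was not chosen on this motif, and a match is a description and not a site of binding. Windows of 30 bases around the motif are shown for 8 of these 10 members, 5 that were not low in any library (Nop2, Utp18, Pes1, Utp4, Ltv1) and 3 that were low in sample 1 of Negative siRNA (Tsr1, Tsr2, Mrm1), all in GRCm38.p6 with the motif in capitals.
Nop2 (chr6:125131811-125131840, plus strand): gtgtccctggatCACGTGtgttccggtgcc
Utp18 (chr11:93885769-93885798, minus strand): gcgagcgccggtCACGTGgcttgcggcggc
Pes1 (chr11:3963965-3963994, plus strand): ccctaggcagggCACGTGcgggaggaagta
Utp4 (chr8:106893643-106893672, plus strand): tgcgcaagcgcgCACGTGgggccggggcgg
Ltv1 (chr10:13193092-13193121, minus strand): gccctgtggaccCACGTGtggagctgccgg
Tsr1 (chr11:74898092-74898121, plus strand): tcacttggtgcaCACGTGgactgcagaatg
Tsr2 (chrX:151096511-151096540, minus strand): ctgcctgggagcCACGTGatctaaacggat
Mrm1 (chr11:84819491-84819520, minus strand): aagctggggaccCACGTGggaggctgggag

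The motif began 60 bases before the start site in Nop2 and 20 bases before it in Utp18. In Pes1 it began at base 3 of the transcript, in Mrm1 at base 8, in Tsr2 and Utp4 at base 16, in Tsr1 at base 25 and in Ltv1 at base 29. Members also host snoRNA genes, which are processed from introns: 7 of the 43, Ncl, Nop56, Nop58, Dkc1, Wdr43, Tsr1 and Bud23, had an annotated snoRNA gene on their strand inside an intron.

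The 8 low genes belong to 4 of the 8 functional groups of the list. Fbl encodes fibrillarin, the methyltransferase of the box C/D snoRNPs, which add methyl groups to the ribose of rRNA. It had 43 reads in sample 1 of Negative siRNA, 1917 in sample 2, and 1405 and 1497 in the Trps1 siRNA samples, which is 2.14, 74.8, 78.6 and 68.8 CPM. Fbl thus stood at a like level in 3 libraries and at 2.86% of it in the fourth. The gene lies on chromosome 7, 28169710 to 28179269, plus strand (GRCm38), and is protein coding like the other members.

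Fcf1 and Esf1 belong to the small subunit (SSU) processome, the particle that forms on the nascent transcript, and Fcf1 is an endonuclease that cuts the precursor of 18S rRNA. Fcf1 had 1.44 CPM in sample 1 of Negative siRNA against 30.3 CPM in sample 2, and 31.5 and 31.6 CPM after Trps1 siRNA. Esf1 had 0.646 CPM against 18.3 CPM, and 19.2 and 20.4 CPM after Trps1 siRNA. Tsr1, a GTPase-like factor of late 40S assembly, had 1.29, 26.8, 24.5 and 26.4 CPM in the order of Negative siRNA samples 1 and 2 and Trps1 siRNA samples 1 and 2. In both processome genes and in Tsr1 a single library was low and the other control matched the Trps1 siRNA samples.

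Tsr2, which carries the ribosomal protein eS26 to the pre-40S particle, was the lowest of the members in relative terms, at 1.81% of the median of the other samples. It had 12 reads in sample 1 of Negative siRNA and 846, 612 and 704 reads in the other libraries, or 0.596, 33.0, 34.3 and 32.4 CPM. The remaining 3 low genes encode rRNA modification enzymes. Dimt1, which dimethylates adenosines of 18S rRNA, had 0.497, 7.30, 8.23 and 7.86 CPM. Tsr3, which attaches an aminocarboxypropyl group to 18S rRNA, had 1.19, 17.4, 17.0 and 17.1 CPM. Mrm1, the mitochondrial enzyme, had 0.696, 11.1, 14.4 and 13.7 CPM. Summed over the 8 genes, the level was 8.499 CPM in sample 1 of Negative siRNA and 219 CPM in sample 2, against 228 and 218 CPM after Trps1 siRNA.

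**Figure D1:**
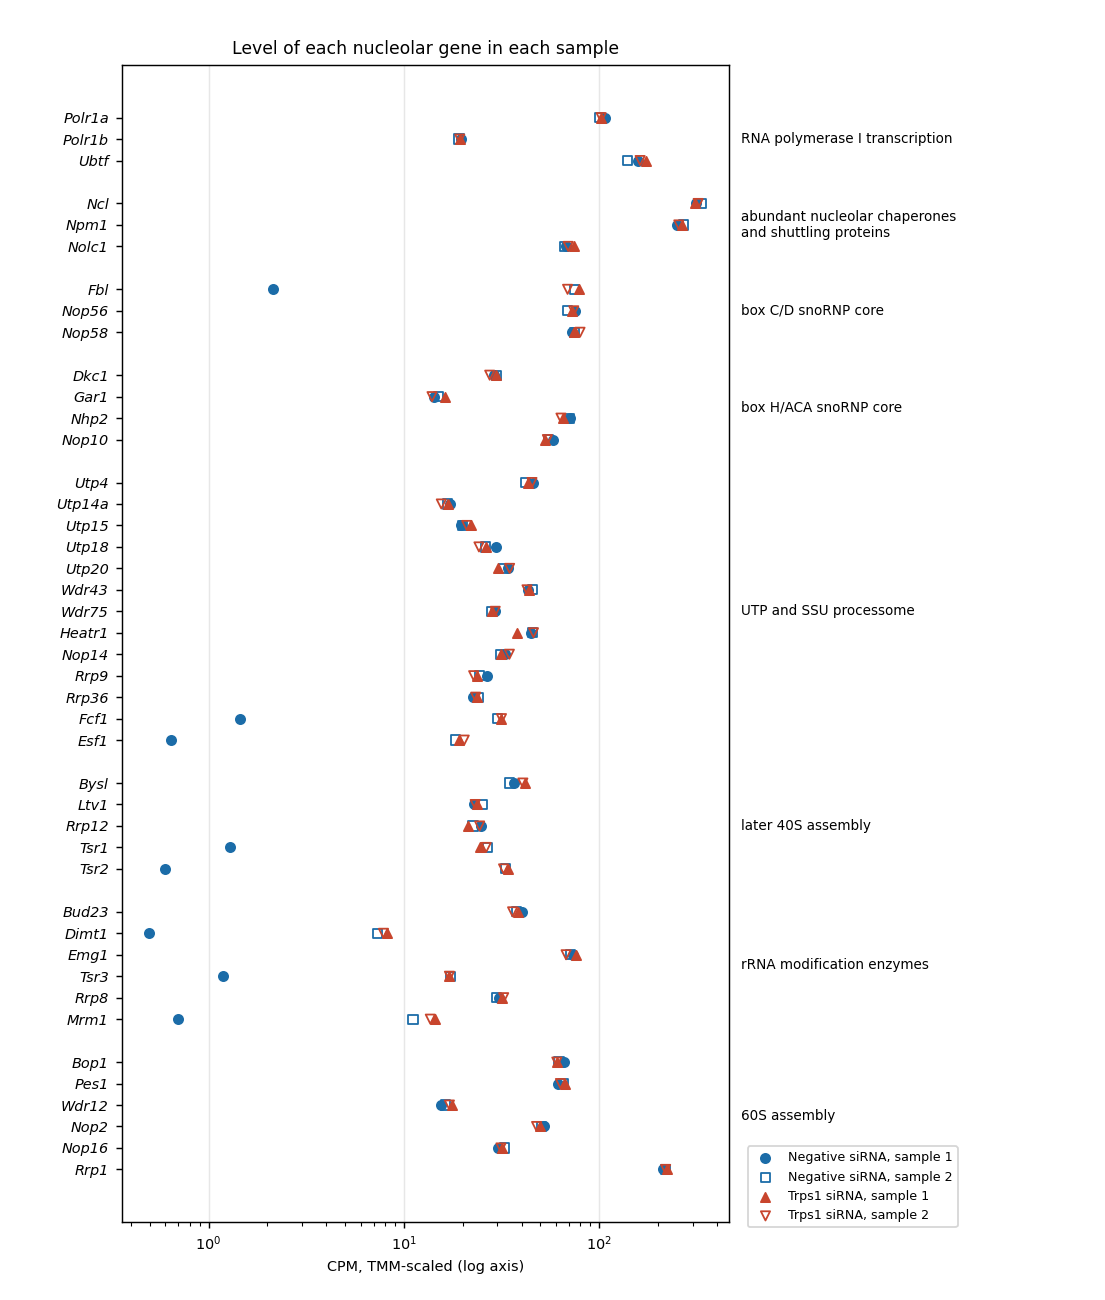
Level of each of the 43 nucleolar genes (rows, by functional group) in each of the 4 samples, in TMM-scaled CPM on a log axis. Points of the 4 samples lie close together for 35 genes, while for Fbl, Fcf1, Esf1, Tsr1, Tsr2, Dimt1, Tsr3 and Mrm1 the filled circle of Negative siRNA sample 1 lies far to the left of the other 3.

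Features outside the list with the same pattern included rRNA itself. Of the 18 features that met the criterion, 16 had their lowest value in sample 1 of Negative siRNA and 2 in sample 2, and 8 of the 16 were not in the list. The 2 in sample 2, Cyp17a1 and Sv2c, were low in both controls and not in a single library. Cyp17a1 had 16.45 and 15.22 CPM in the controls and 106.8 and 98.83 CPM after Trps1 siRNA. Sv2c had 14.71 and 12.88 CPM in the controls and 67.88 and 68.99 CPM after Trps1 siRNA. The mitochondrial 12S rRNA, mt-Rnr1, had 381 reads in sample 1 of Negative siRNA and 26080, 18617 and 22713 in the other libraries, or 1.82% of their median CPM. The annotated nuclear rRNA feature CT010467.1, on chromosome 17, had 552 reads against 28464, 17037 and 27070, or 2.47%. The mitochondrial 16S rRNA, mt-Rnr2, was not low in this way, with 716 CPM against 842, 948 and 841 CPM. Annotated rRNA features together held 0.0763% of the counts in sample 1 of Negative siRNA and 0.294%, 0.295% and 0.315% in the others.

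Of the other non-member features, Ebna1bp2, a 60S assembly factor, had 9.54 CPM in sample 1 of Negative siRNA and 43.3, 49.4 and 46.1 CPM in the other libraries. Lars2, the mitochondrial leucyl-tRNA synthetase, had 26.8, 105, 228 and 323 CPM, and so also differed among the other samples. Hao2, a peroxisomal oxidase, had 32.8 and 45.6 CPM in the controls and 153 and 185 CPM after Trps1 siRNA, where both controls were low. The remaining 3 were a short feature annotated as a microRNA (Gm23935), a feature without a symbol and one named by the authors. Another 20 features had their lowest value in sample 1 of Negative siRNA at 25% to 50% of the median of the others, beside 13, 3 and 12 in the other 3 libraries. These counts also hold genes that were low in both controls. Hsd3b1, among the 20, had 382.6 and 448.7 CPM in the controls and 1021 and 1197 CPM after Trps1 siRNA. Lhcgr, among the 13, had 40.46 and 34.62 CPM in the controls and 79.91 and 83.29 CPM after Trps1 siRNA. Among the 20 were 2 further genes of 60S assembly. Gnl3l, which encodes a nucleolar GTPase, had 26.7 CPM against 70.0, 78.8 and 79.8 CPM, or 33.9%. Ftsj3, which encodes an rRNA methyltransferase, had 38.1 CPM against 78.2, 84.2 and 82.7 CPM, or 46.0%. The levels of annotated rRNA and of these 8 nucleolar genes were thus low in the same library, and the part that the removal or filtering of rRNA reads had in this was not tested.

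**Figure D2:**
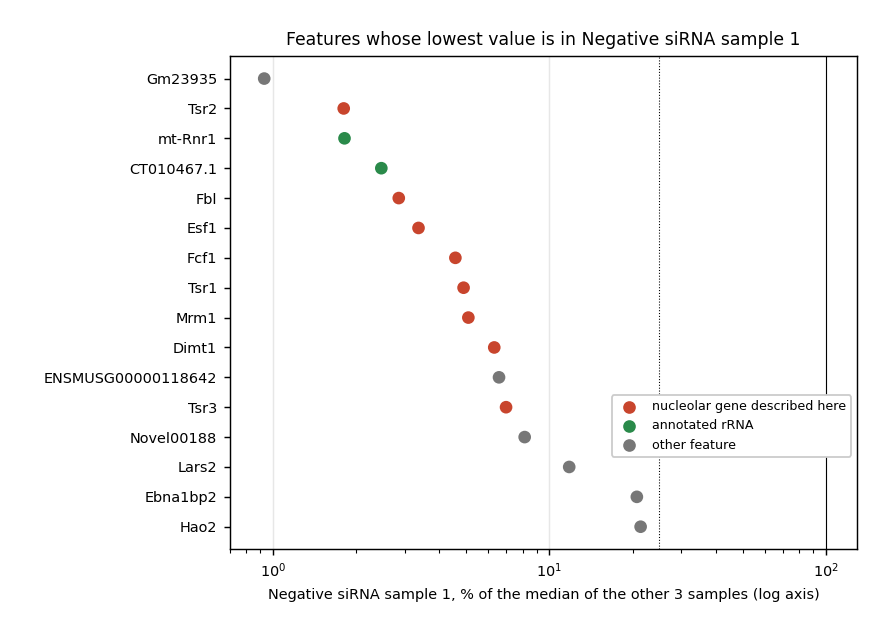
The 16 features with a mean of at least 5 CPM whose lowest value was in Negative siRNA sample 1 and under 25% (dotted line) of the median of the other 3 samples, with that percentage on a log axis. The 8 nucleolar genes lie between 1.81% and 6.98%, in the same range as mt-Rnr1 (1.82%) and CT010467.1 (2.47%).

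Transcripts of the members were compared with annotated rRNA features for shared sequence. The only nuclear one was CT010467.1, of 1849 bases, so rRNA sequence outside it and the mitochondrial features was not compared. The longest run of bases shared exactly with mt-Rnr1, mt-Rnr2 or CT010467.1, on either strand, was 11 to 16 bases in the 8 low genes, with a median of 12, and 11 to 21 bases in the other 35, with a median of 13. The 21-base run was in Ncl, which was not low. Genes on the opposite strand that overlap exons of the low genes were not low in sample 1 of Negative siRNA by the same threshold. Arel1 beside Fcf1 had 42.7 and 40.3 CPM in the 2 controls, Kif2a beside Dimt1 had 26.3 and 31.0 CPM, and Srr beside Tsr1 12.4 and 13.5 CPM. Fgd1 beside Tsr2 had 11.3 and 14.1 CPM, and Baiap3 beside Tsr3 at most 0.28 CPM in any library. Exon overlap with a gene on the opposite strand was annotated for 21 of the 43 members and 5 of the 8 low ones. The sources do not state whether reads were counted by strand. Reads from the exon stretch shared by a member and such a gene thus cannot be told apart.

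Within groups, the 35 genes that were not low differed little between samples. Sample 1 minus sample 2 on the log2(CPM + 0.5) scale had a median of 0.04 in Negative siRNA, with a range of -0.14 to 0.17, and of 0.03 in Trps1 siRNA, with a range of -0.27 to 0.22. For the 8 low genes the median was -3.96 in Negative siRNA, with a range of -4.93 to -2.97, and 0.03 in Trps1 siRNA. Over all 10758 features of that level the median absolute difference was 0.08 and 0.09 in the 2 groups. A difference of over 1 on this scale was found in 19 of them between the Negative siRNA samples, 18 of them lower in sample 1, and in 2 between the Trps1 siRNA samples.

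**Figure D3:**
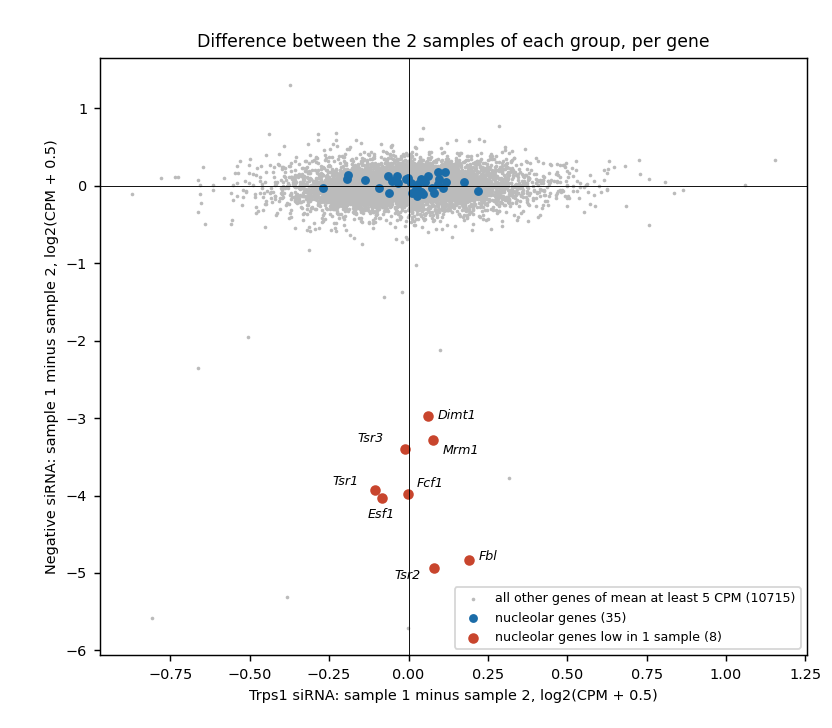
Sample 1 minus sample 2 on the log2(CPM + 0.5) scale, per gene, in Trps1 siRNA (x axis) and in Negative siRNA (y axis), for the 10758 genes averaging 5 CPM or more. The 8 low nucleolar genes lie at -4.93 to -2.97 on the y axis and near 0 on the x axis, while the other 35 lie within the cloud of all genes on both axes.

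The comparison of Trps1 siRNA with Negative siRNA asks which transcripts depend on Trps1. In edgeR's quasi-likelihood test with Benjamini-Hochberg adjustment over 14701 genes, 0 of the 43 nucleolar genes were called higher and 0 lower, where 5.24% of all genes tested were called higher and 6.00% lower. All 43 passed the filter on low counts. At an unadjusted p under 0.05 the count was 3 of 43, beside 23.9% of all genes tested. DESeq2 called 0, beside 8.36% of the genes it gave an adjusted p. limma voom called 2 higher, beside 4.82% of all genes tested, and these were Esf1 and Mrm1, both low in sample 1 of Negative siRNA. Without that sample edgeR called 1 of the 43 higher, Ubtf, and 0 lower, beside 3.40% and 4.40% of 15365 genes, and 3 were at an unadjusted p under 0.05, beside 19.1% of all. The list was proposed with this contrast known, and nothing is read from these counts.

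The median log2 fold change of the 35 genes that were not low was -0.004, and their range was -0.14 to 0.21 with standard errors of 0.06 to 0.12. Of these genes 34 of 35, or 97.1%, had a log2 fold change within 0.2 of zero, as did 73.2% of the 10758 genes that averaged 5 CPM or more. With the 8 low genes included it was 34 of 43, or 79.1%. The 35 had been parted from the list by values in these samples, and no genes were set aside from the 10758, so nothing is read from the 97.1%. The summed level of the 35 genes was 2248 and 2246 CPM in the controls and 2260 and 2244 CPM after Trps1 siRNA. For the 8 low genes the fitted log2 fold changes were 0.80 to 1.17, with standard errors of 1.26 to 1.61 that exceeded them. Without sample 1 of Negative siRNA the same 8 had log2 fold changes of -0.08 to 0.33, with standard errors of 0.09 to 0.20. Without sample 2 of Negative siRNA, with the low library as the only control, they were 3.83 to 5.79. The 8 had been chosen as low in that library, so high values in this fit followed from the choice. The lone control is assumed in both fits to vary like the Trps1 siRNA samples. The fitted size for these 8 genes thus differed with the control library that entered the fit, as their choice implies.

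**Figure D4:**
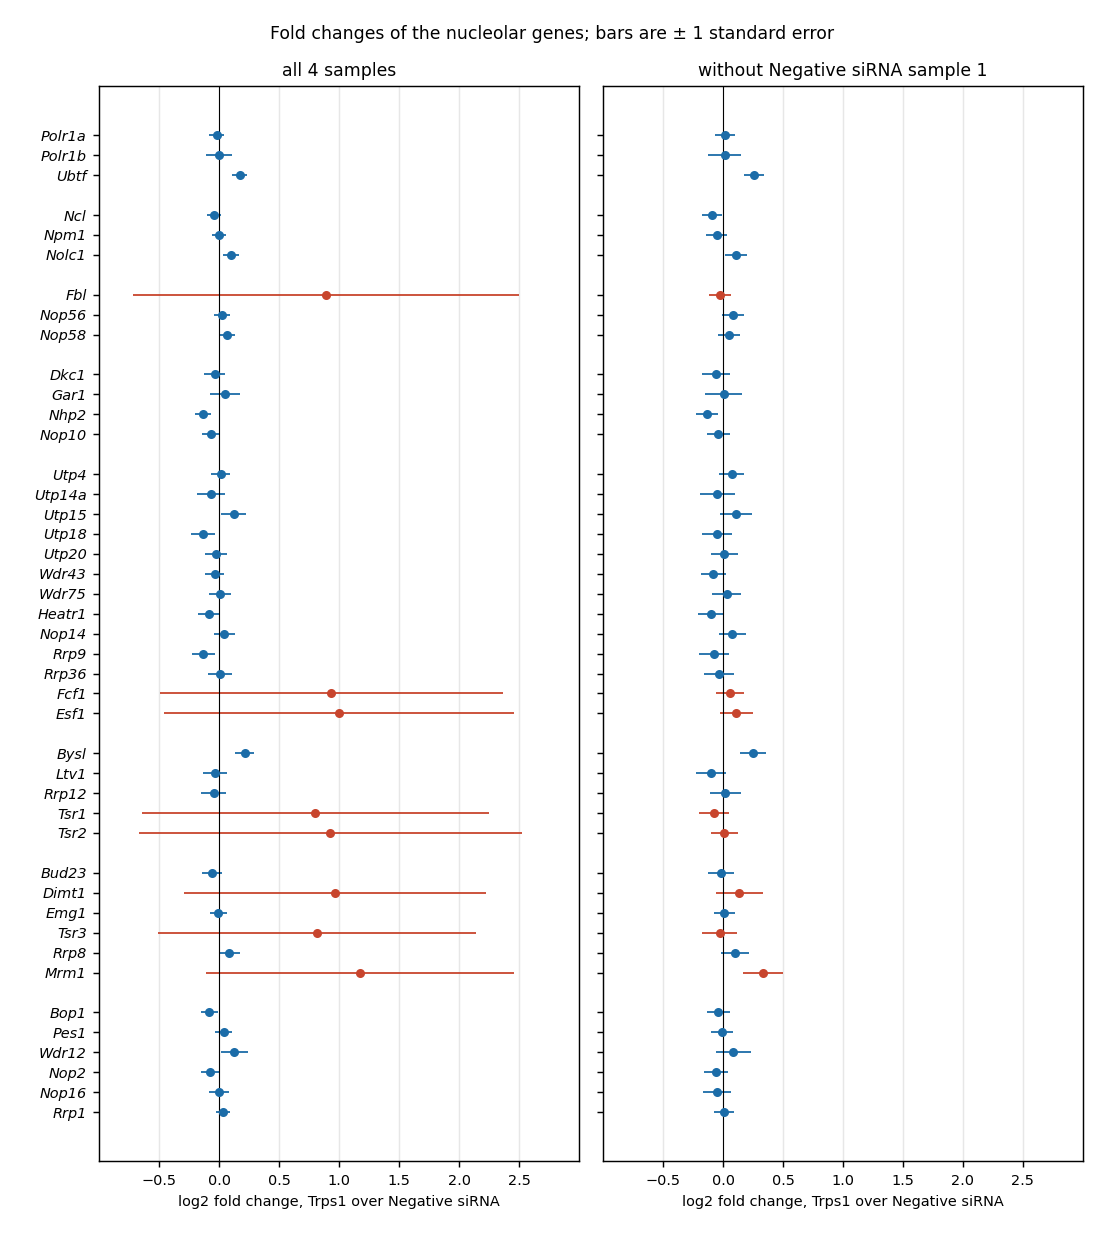
log2 fold change of Trps1 siRNA over Negative siRNA for each nucleolar gene, with bars of ± 1 standard error, from all 4 samples (left) and without Negative siRNA sample 1 (right). The 8 low genes (red) have values of 0.80 to 1.17 with long bars on the left and of -0.08 to 0.33 on the right, while the other 35 (blue) lie between -0.14 and 0.21 on the left.

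Transcription of rRNA genes was represented by 3 members. Polr1a, the largest subunit of RNA polymerase I, had 107 and 101 CPM in the controls and 102 and 102 CPM after Trps1 siRNA. Polr1b, the second largest subunit, had 19.7, 19.2, 19.4 and 19.3 CPM, the narrowest spread in the list over the last 3 samples. Ubtf, the factor that opens rRNA gene chromatin for polymerase I, had 158 and 140 CPM in the controls and 173 and 162 CPM after Trps1 siRNA. The log2 fold change of Ubtf was 0.17 ± 0.06 (standard error), and 0.26 ± 0.08 without sample 1 of Negative siRNA.

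The abundant nucleolar proteins nucleolin (Ncl) and nucleophosmin (Npm1), which bind and chaperone pre-ribosomal RNA and proteins, had the highest counts of the list. Ncl had 314 and 334 CPM in the controls and 308 and 321 CPM after Trps1 siRNA. Npm1 had 250 and 269 CPM in the controls and 264 and 255 CPM after Trps1 siRNA. In both genes the groups overlapped, and the log2 fold changes were -0.04 ± 0.06 and -0.001 ± 0.06. Nolc1, a chaperone of snoRNPs, had 67.4 and 66.4 CPM in the controls and 73.9 and 69.3 CPM after Trps1 siRNA, a log2 fold change of 0.10 ± 0.07.

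Nop56 and Nop58, the scaffold proteins that hold Fbl in box C/D snoRNPs, did not share its drop. Nop56 had 75.2, 69.0, 72.2 and 74.0 CPM and Nop58 had 72.9, 74.6, 74.7 and 79.7 CPM in the order of the controls and then the Trps1 siRNA samples. In the 3 libraries without the low value Fbl had 68.8 to 78.6 CPM. The summed level of the 3 box C/D proteins was 150 CPM in sample 1 of Negative siRNA and 218, 226 and 223 CPM in the other libraries, and this gap is that of Fbl. Dkc1, the pseudouridine synthase of the box H/ACA snoRNPs, had 29.0, 29.7, 29.7 and 27.5 CPM, and its partner Gar1 had 14.2, 15.0, 16.3 and 13.9 CPM. Nhp2, another H/ACA core protein, had 71.2 and 70.5 CPM in the controls and 65.1 and 63.7 CPM after Trps1 siRNA. Its log2 fold change of -0.14 ± 0.07 was the lowest in the list. The small H/ACA protein Nop10 had 57.7 and 55.0 CPM in the controls and 52.8 and 54.2 CPM after Trps1 siRNA.

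Of the 13 genes of the SSU processome, 11 were not low in any library. Utp4, Utp15, Wdr43, Wdr75 and Heatr1 encode parts of the complex that binds the start of the transcript first. Among them Utp15 had the highest log2 fold change, 0.12 ± 0.11, from 19.6 and 20.0 CPM in the controls to 22.1 and 20.96 CPM after Trps1 siRNA. Heatr1 had 44.5 and 45.3 CPM in the controls and 38.1 and 46.1 CPM after Trps1 siRNA, so that a single Trps1 siRNA sample was low and the groups overlapped. Utp18 had 29.5, 26.1, 26.3 and 24.2 CPM, and Rrp9, which binds the U3 snoRNA, had 26.6, 24.4, 23.8 and 22.8 CPM. Their log2 fold changes were -0.14 ± 0.10 and -0.13 ± 0.10. Utp14a, Utp20, Nop14 and Rrp36 had log2 fold changes between -0.07 and 0.04.

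The 5 genes of later 40S assembly summed to 86.2 CPM in sample 1 of Negative siRNA and 142, 145 and 147 CPM elsewhere, with Tsr1 and Tsr2 as its low members. Bysl, the mouse homologue of yeast Enp1, had the highest fold change of the genes that were not low. It had 36.7 and 34.6 CPM in the controls and 41.7 and 40.6 CPM after Trps1 siRNA. Its log2 fold change was 0.21 ± 0.08. Exons of Bysl overlap those of Ccnd3, the gene of a cyclin D, on the opposite strand. Rrp12, a factor of subunit export, and Ltv1 had log2 fold changes of -0.05 ± 0.10 and -0.04 ± 0.10.

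Among the modification enzymes, Emg1, Bud23 and Rrp8 kept like levels in the 4 libraries where Dimt1, Tsr3 and Mrm1 did not. Emg1, which methylates a pseudouridine of 18S rRNA, had 73.6, 71.4, 76.4 and 67.6 CPM. Bud23, which methylates a guanosine of 18S rRNA, had 40.1, 37.6, 38.5 and 35.99 CPM, and Rrp8, which methylates an adenosine of 28S rRNA, 30.6, 29.9, 31.7 and 32.4 CPM. Without sample 1 of Negative siRNA, Mrm1 had the highest log2 fold change of the list, 0.33 ± 0.16, from 11.1 CPM in the remaining control to 14.4 and 13.7 CPM.

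None of the 6 members that act in 60S assembly was low in a library. Bop1, Pes1 and Wdr12 encode the 3 subunits of the PeBoW complex, which acts in the maturation of 28S rRNA. Pes1 had 61.4 and 65.5 CPM in the controls and 66.9 and 63.3 CPM after Trps1 siRNA. Bop1 had 66.4, 62.2, 60.5 and 60.6 CPM and Wdr12 had 15.4, 16.3, 17.6 and 17.1 CPM. Their log2 fold changes were 0.04 ± 0.07 for Pes1, -0.08 ± 0.07 for Bop1 and 0.13 ± 0.12 for Wdr12. Nop2, a cytosine methyltransferase of 28S rRNA, had 52.2, 50.6, 49.5 and 47.8 CPM. Nop2, Nop16 and Rrp1 had log2 fold changes between -0.08 and 0.03.

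Levels between genes were compared per length as RPKM, the CPM divided by the annotated exon length in kilobases. The median of the 3 libraries other than sample 1 of Negative siRNA was used. Exon length joined the exons of all annotated transcripts of a gene. The order of genes thus depends on the annotation as well as on the reads. Npm1 was the highest at 99.0, followed by Rrp1 at 65.6, Nhp2 at 56.8, Nop10 at 48.9 and Ncl at 31.5. Fcf1 came next at 28.2. The other low genes were spread over the order, from Fbl at 17.8 and Tsr3 at 14.3 to Dimt1 at 2.04, which only Wdr12 at 1.43 fell below. The joined length was 11955 bases for Wdr12 and 3851 for Dimt1. Before division by length Wdr12 was the higher, at 16.31 to 17.57 CPM against 7.298 to 8.226 CPM in these libraries. Over the same 3 libraries each gene's highest CPM was 1.01 to 1.30 times its lowest. So Tsr2 at 8.68 and Polr1a at 8.56, next to each other in this order, did not differ beyond that spread.

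Myc itself had 44.9 and 43.1 CPM in the controls and 41.5 and 40.8 CPM after Trps1 siRNA. The groups did not overlap, and the log2 fold change was -0.10 ± 0.08 (edgeR adjusted p = 0.508). Of 11 tested genes of the MYC network, 1 was called higher and 1 lower, beside 5.24% and 6.00% of all genes tested. Mlxip, a glucose-responsive partner of MLX, rose 1.29-fold, from 31.6 and 31.2 to 40.5 and 40.8 CPM (log2 fold change 0.37 ± 0.08, edgeR adjusted p = 0.00272). Mlx fell to 0.820 of the control, from 30.0 and 33.9 to 26.1 and 26.3 CPM (edgeR adjusted p = 0.0446). The call of Mlx was lost with DESeq2, limma voom, library totals and non-robust estimation, and when sample 2 of Negative siRNA or either Trps1 siRNA sample was left out, with log2 fold changes of -0.30 to -0.19. The authors' deposited table lists 780 genes, with 0 of the 43 nucleolar members among them and a log2 fold change of 0.37 for Mlxip.

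Further genes of ribosome biogenesis came from lists of the same pathway, 117 in all, of which Exosc6 had no counts. Of the 116 tested, edgeR called 1 higher and 2 lower, beside 5.24% and 6.00% of all genes tested. An unadjusted p under 0.05 was found for 14 of the 116, beside 23.9% of all genes tested. The median log2 fold change of the 116 was 0.007, where that of all genes tested was 0.002. Nat10, which acetylates cytidines of 18S rRNA, rose 1.26-fold, from 31.8 and 26.8 CPM in the controls to 38.6 and 35.0 CPM after Trps1 siRNA (log2 fold change 0.33 ± 0.09, edgeR adjusted p = 0.0208). Nop53, a 60S factor that recruits the RNA exosome, fell to 0.838 of the control, from 139 and 135 to 117 and 112 CPM (log2 fold change -0.26 ± 0.06, edgeR adjusted p = 0.00332). Znhit6, an assembly factor of box C/D snoRNPs, fell to 0.821, from 34.4 and 38.6 to 30.8 and 29.3 CPM (edgeR adjusted p = 0.0341).

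These 3 calls did not hold in every fit. The call of Nat10 was lost with DESeq2, when the second control was left out (log2 fold change 0.21) and when the first Trps1 siRNA sample was (0.26). That of Znhit6 was lost with DESeq2 and without sample 2 of either group, and that of Nop53 without sample 1 of Negative siRNA (log2 fold change -0.24, edgeR adjusted p = 0.0546). Without sample 1 of Negative siRNA, 2 of the 116 were called higher, Nat10 and Riok2, a kinase of late 40S maturation, and 1 lower, Znhit6. The authors' deposited table lists Nop53, with a log2 fold change of -0.26 and an adjusted p of 0.0261.

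By list, edgeR called 0 of 12 other genes of RNA polymerase I (1 at an unadjusted p under 0.05), 1 of 35 of the SSU processome and 40S assembly, 1 of 48 of 60S assembly, 1 of 8 snoRNP assembly factors and 0 of 13 genes of the RNA exosome (0 at an unadjusted p under 0.05). Over all genes tested, edgeR called 5.24% higher and 6.00% lower, and 23.9% had an unadjusted p under 0.05. In the 2 lists without a call DESeq2 and limma voom also called 0 and 0. All 8 snoRNP assembly factors had a negative log2 fold change, with a median of -0.11, where 7290 of all 14701 genes tested were negative. In edgeR 1 of the 8 had an unadjusted p under 0.05. The shared sign did not hold without sample 1 of Negative siRNA, where Nufip1 was at 0.004. Ebna1bp2, Gnl3l and Ftsj3, lower in sample 1 of Negative siRNA, had log2 fold changes of 0.81 ± 0.92, 0.69 ± 0.63 and 0.51 ± 0.48. Without that sample the values were 0.14, 0.18 and 0.09.

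The cytosolic ribosomal proteins are what this pathway builds into subunits. Of 78 tested genes named Rpl, Rplp or Rps, 27 were called lower and 0 higher, beside 6.00% and 5.24% of all genes tested. The median log2 fold change of the 78 was -0.17, against -0.004 for the 35 nucleolar genes that were not low. Without sample 1 of Negative siRNA 10 of 79 were called lower, with a median of -0.19. The difference between the 2 sets of genes was not tested, and reads of these genes could be split with their pseudogenes. Summed levels of 8 markers of cycling cells were 293 and 286 CPM in the controls and 283 and 261 CPM after Trps1 siRNA.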

How the data were processed

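Raw read counts per gene were deposited by the authors for 4 samples. Per the submitters' processing notes HISAT2, featureCounts and GRCm38 (mm10) were used. Versions, read length, strandedness and any removal of rRNA reads were not stated there. The authors also deposited mean signal per group (counts averaged after scaling), log2 fold changes and adjusted p-values for 780 genes, whose test was not stated. Per the file headers these compare Trps1 siRNA with Negative siRNA.

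Symbols, positions and exon lengths came from GENCODE M21 (GRCm38). The counts as deposited were fitted in edgeR 4.0.16 under R 4.3.3, after TMM scaling and filterByExpr (minimum count 10), by robust glmQLFit and glmQLFTest, and the group as only term, leaving 2 residual degrees of freedom. A gene was called at an adjusted p (Benjamini-Hochberg) below 0.05. The standard error of a log2 fold change was taken as its size over the root of the F statistic. CPM used TMM-scaled totals. Replicates differed beyond sampling noise, with a chi-square of 7.08 and 4.34 per gene in the control and Trps1 siRNA pairs. The fit was tested on simulated data with known changes.

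The members and all lists were chosen with earlier results of these data known. Named genes were all members (with values per sample for the low ones and the 3 with the largest fold change in each functional group), the called genes of each further list, Myc and Trps1. Riok2, Ebna1bp2, Gnl3l, Ftsj3, Lars2, Hao2 and the rRNA features were named after their values were seen. Alternatives were RLE size factors, library totals, 2 other filters, DESeq2 1.42.0, limma voom (limma 3.58.1), non-robust estimation, a replicate block and each sample left out in turn.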

Additional observations from a re-analysis of the deposited data

How the results depend on the processing

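Over all genes, DESeq2 called 438 higher and 553 lower, against 770 and 882 in edgeR, and with a sample left out the counts were 395 to 748 higher and 476 to 927 lower, both lowest without sample 2 of Trps1 siRNA. Of the 43 nucleolar genes, limma voom called 2 higher. Calls without sample 2 of Negative siRNA are not counted, as the 8 low genes had been chosen as low in the remaining control. In no fit run was one of the 43 called lower. Their median log2 fold change, 0.008 with all samples, was 0.007 to 0.037 with a sample left out. Of the 116 other ribosome biogenesis genes, DESeq2 called 0 higher and 1 lower, limma voom 2 higher, a filter at a mean of 5 CPM 4 lower, and fits without a sample 0 to 3 higher and 1 to 2 lower. Their median was 0.019 with library totals and -0.023 to 0.033 with a sample left out. The medians of the 35 nucleolar genes that were not low moved by less than the spread between replicates in every fit run.

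The labels give both groups sample numbers 1 and 2 without saying that a number marks a shared culture. Deviations of same-numbered samples correlated at 0.02 across genes. That value rests on the 2 samples of each group and cannot tell whether a culture was shared. With the replicate block, 1073 genes were called higher and 1212 lower, of the nucleolar genes 9 higher, which are Ubtf and the 8 that were low in sample 1 of Negative siRNA, and of the other ribosome biogenesis genes 5 higher and 4 lower. With 2 samples a group, an error from 1 library cannot be averaged out. Without sample 1 of Negative siRNA, Dimt1, the member with the fewest reads, had the largest standard error of the 43, 0.20 on the log2 scale.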
